A study of Homo sapiens with 24 samples.

Results

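The genes described here are 57 genes that act at the change from G2 to mitosis (G2/M) and in mitosis itself, of 60675 genes counted in each library. They are a named list, which holds 13 regulators of mitotic entry, 8 genes of the spindle checkpoint and the start of anaphase, 9 kinetochore genes, 9 kinesins, 7 other spindle genes, 4 genes of the chromosomal passenger complex, 4 of cytokinesis and 3 of mitotic chromosomes and other roles. Each symbol matched 1 Ensembl identifier, and all 57 genes passed the filter on low counts in both cell lines. The measured values of these libraries were not part of the rule that lists them, although the list was drawn up with earlier results of these data known.

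RNA was sequenced from the MDA-MB-231 and the MDA-MB-436 line, both derived from triple-negative breast cancer, a tumour type that lacks the estrogen and progesterone receptors and an excess of HER2. Each line was treated with 2 agents directed at MDM2, a ubiquitin ligase. One arm expressed an shRNA, a short hairpin RNA that degrades a matching transcript, either directed at MDM2 (MDM2 shRNA) or non-targeting (NT shRNA). The other arm received YX-2-30, an MDM2 PROTAC (a compound that ties a protein to a ubiquitin ligase so that it is degraded), or DMSO, its vehicle. This made 8 groups of 3 libraries: NT shRNA, MDM2 shRNA, DMSO and PROTAC in each line, with NT shRNA as the control of MDM2 shRNA and DMSO as the control of the PROTAC. All groups were grown in the same medium with fetal bovine serum. The hairpin sequences, the PROTAC dose and duration, and the source of the 3 libraries within a group (separate cultures or not) are not given in the sources used here, so p-values measure the spread between these libraries, which may be technical.

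Levels are CPM, counts scaled to a common library total (counts-per-million), after scaling of library sizes by the trimmed mean of M-values (TMM), and total counts per library ran from 33413988 to 174744841. In MDA-MB-231, MDM2 stood at 19.6, 22.4 and 11.2 CPM with NT shRNA, 24.3, 23.4 and 30.3 with MDM2 shRNA, 16.6, 23.9 and 14.9 with DMSO and 19.9, 22.9 and 23.6 with the PROTAC. The MDM2 values in MDA-MB-436 were 22, 30.6 and 23.8 CPM with NT shRNA, 14.8, 28.6 and 27.5 with MDM2 shRNA, 41.4, 30.3 and 36.4 with DMSO and 23.1, 25.4 and 22.1 with the PROTAC. In MDA-MB-231, MDM2 RNA was therefore higher in all libraries labelled MDM2 shRNA than in all NT shRNA libraries (log2 change of 0.55). The PROTAC and DMSO groups of that line overlapped. In MDA-MB-436 the hairpin groups overlapped, while all PROTAC libraries lay below all DMSO libraries (-0.61). Neither change had an adjusted p under 0.05, and MDM2 protein was not measured here. Below, MDM2 shRNA and NT shRNA mean the libraries labelled so, and each direction given for the hairpin rests on those labels. The epithelial keratins KRT8 and KRT18 were at least 203 CPM in every library, while the epithelial cadherin CDH1 was at most 0.667 CPM. CD3E, a marker of T cells, CDH5, of endothelium, and DCN, of fibroblasts, were at 0 or at most 0.148 CPM in every library. Not all markers of these kinds were silent. In MDA-MB-231, 3 of 5 leukocyte, 2 of 4 endothelial and 2 of 4 fibroblast markers passed the filter on low counts. In MDA-MB-436 these numbers were 2, 3 and 2. ESR1 and PGR were at most 0.554 CPM, and ERBB2 ran from 39.4 to 88.4 CPM. Markers moved with the treatments, the receptor genes among them, of which 2 passed the filter in each line. In MDA-MB-231, 1 of the 2 was called higher with the hairpin and 0 with the PROTAC. In MDA-MB-436, 1 was called lower with the hairpin (-0.45) and 1 with the PROTAC (-0.43). In MDA-MB-436, 5 of 8 epithelial markers tested were higher and 2 lower (KRT8 by a log2 change of -1.02 and KRT18 by -0.81) with the hairpin, and 3 and 2 with the PROTAC. In MDA-MB-231, 0 and 1 of 7 were so with the hairpin and 1 and 2 with the PROTAC, among them KRT7, at -0.63 and -0.66. COL1A1 was higher in MDA-MB-231 (0.98 and 0.81) and PTPRC lower (-0.57 and -0.60), while CD14 (-1.02 and -0.76) and KDR (-0.85 and -1.20) were lower in MDA-MB-436. The other fibroblast marker tested in MDA-MB-231 had 2.44 with the hairpin and 0.66 with the PROTAC, and passed the test in neither. LYZ had 0 counts in the DMSO libraries of MDA-MB-436 and 0.278, 0.156 and 0.832 CPM with the PROTAC. The part of these changes in the results below was not tested.

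As background, cells enter mitosis when cyclin B and its kinase CDK1 become active, driven by CDC25 phosphatases, Polo-like and Aurora kinases. Kinetochores then bind chromosomes to spindle microtubules, kinesins move and shorten those microtubules, and the spindle checkpoint holds back the anaphase-promoting complex (APC/C) until every chromosome is attached; the APC/C then destroys securin and cyclin B, and cytokinesis divides the cell. RNA of most of these genes rises in G2 and mitosis and is low in early cell cycle phases. Their promoters often carry a cell-cycle genes homology region (CHR), which is bound by the MuvB complex through its subunit LIN54, and CCAAT boxes, which are bound by NF-Y. MuvB represses with the pocket proteins RBL1 and RBL2 in resting cells and activates with MYBL2 and FOXM1 in dividing cells. The level of such RNA in a mixed culture therefore depends on the share of cells in G2 and mitosis, and in bulk libraries fewer such cells and less RNA per cell cannot be told apart.

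The promoters show what these genes share beyond the list. RefSeq promoters (GRCh38.p14, 250 bases before to 50 after the start) were found for 50 of the 57 genes, and not for AURKA, BIRC5, BUB3, FOXM1, TPX2, TTK and UBE2C. The CHR, searched as TTTGAA or TTCGAA on both strands, occurred in 37 of the 50 promoters (74.0%), against 16.4% of all 35116 promoters of that length and 12.4% of the promoters of tested genes. CCAAT on either strand occurred in 38 promoters (76.0%, against 34.6 and 34.3%), and 2 or more CCAAT in 22 (44.0%, against 10.8 and 11.6%). A CHR together with a CCAAT was found in 31 promoters (62.0%, against 6.4 and 4.9%). Words of the E2F site (TTTGGCGC, TTTGCCGC, TTTCGCGC and TTTCCCGC) were found in 3 promoters (6.0%, against 3.3 and 4.4%). A CCAAT box can overlap a CHR by some bases, as in MKI67. A match describes the letters only, and the words and the promoters shown were chosen with the values of these genes known.

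Sequence upstream of the start is shown for genes that fell in all 4 comparisons (CDC20, ASPM and CCNF with both motifs, CCNA2 with a CCAAT alone), for MKI67, which has both motifs and passed no test, and for KIF2C, which has neither motif and moved in opposite directions in the 2 lines. Each is written 5′ to 3′ along the gene, begins 150 bases before the start, ends before the first annotated exon base, and has CHR and CCAAT matches of either strand in capitals.
CDC20 (chr1:43358831-43358954, + strand): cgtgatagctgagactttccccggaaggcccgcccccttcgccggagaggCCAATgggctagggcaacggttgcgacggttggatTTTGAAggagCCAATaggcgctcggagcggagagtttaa
ASPM (chr1:197146695-197146819, - strand): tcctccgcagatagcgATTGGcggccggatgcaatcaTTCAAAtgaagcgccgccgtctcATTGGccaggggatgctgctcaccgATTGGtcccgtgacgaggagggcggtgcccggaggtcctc
CCNF (chr16:2429297-2429393, + strand): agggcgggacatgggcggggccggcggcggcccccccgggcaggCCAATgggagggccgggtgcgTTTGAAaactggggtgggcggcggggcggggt
CCNA2 (chr4:121823934-121824033, - strand): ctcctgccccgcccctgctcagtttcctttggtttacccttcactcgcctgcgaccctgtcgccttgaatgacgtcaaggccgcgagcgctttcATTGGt
MKI67 (chr10:128126424-128126573, - strand): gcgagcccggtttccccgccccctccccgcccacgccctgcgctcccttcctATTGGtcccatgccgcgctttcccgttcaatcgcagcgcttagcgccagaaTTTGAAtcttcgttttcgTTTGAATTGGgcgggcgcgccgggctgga
KIF2C (chr1:44739687-44739817, + strand): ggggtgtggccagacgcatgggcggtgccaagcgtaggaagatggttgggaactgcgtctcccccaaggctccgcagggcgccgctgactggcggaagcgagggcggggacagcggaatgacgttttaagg

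Across the list, most genes were lower after either treatment in both lines. Of the 57 genes, 38 were lower and 2 higher with MDM2 shRNA in MDA-MB-231 (edgeR quasi-likelihood test, adjusted p under 0.05), where 11.6% of all 20675 genes tested were called lower and 11.1% higher. With the PROTAC in that line 33 were lower and 2 higher, against 11.5% and 11.1% of all genes. In MDA-MB-436, 39 were lower and 3 higher with MDM2 shRNA, against 14.4% and 16% of all 22663 genes tested, and 41 were lower and 3 higher with the PROTAC, against 15.1% and 17.3%. Without scaling beyond library totals, which put the median of all genes at 0.22 (hairpin) and 0.21 (PROTAC) in MDA-MB-436, these splits were 25 lower to 6 higher and 28 lower to 7 higher. The median log2 change of the 57 genes was -0.44 (hairpin) and -0.32 (PROTAC) in MDA-MB-231 and -0.41 and -0.50 in MDA-MB-436, beside medians of all genes of 0.014, -0.006, 0.04 and 0.043. The range over the 57 genes was -1.49 to 0.43, -1.32 to 1.16, -1.71 to 0.67 and -1.82 to 0.65 in the same order. All 3 treated libraries lay below all 3 controls for 42, 38, 45 and 43 genes, where 19.3%, 20%, 24.7% and 20.8% of all genes did.

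The same call was often made in all 4 comparisons. There were 26 genes lower in each of them: ANLN, ASPM, AURKA, BIRC5, BUB1, CCNA2, CCNB1, CCNB2, CCNF, CDC20, CDCA3, CDCA8, CENPA, CENPE, CENPF, DLGAP5, GTSE1, INCENP, KIF14, KIF20A, KIF20B, NUF2, PLK1, PRC1, PTTG1 and SGO2. AURKB, BUB3 and MKI67 passed the test in none. CDC25C, KIF22, NEK2 and TPX2 were called lower in both comparisons of MDA-MB-231 and in neither of MDA-MB-436, and ARHGAP11A, FOXM1, SPC25 and TOP2A in both of MDA-MB-436 and in neither of MDA-MB-231. CDK1, KIF2C, NUSAP1, SKA1 and SKA3 were called higher in at least 1 comparison, and SKA3 in all 4. How many of all genes tested show these patterns over several comparisons was not counted, so these numbers have no such share beside them. Leaving out 1 library of the line ended 7 of 40, 5 of 35, 9 of 42 and 9 of 44 calls in the 4 comparisons, and of the 26 genes 21 kept their 4 calls whichever library was left out. The other 5 were AURKA, BIRC5, CENPF, KIF20B and PTTG1. Lower in all 4 also under each other setting of the fit tried were 17 genes: ANLN, ASPM, BUB1, CCNB1, CCNF, CDC20, CDCA3, CDCA8, CENPA, CENPE, DLGAP5, KIF14, KIF20A, NUF2, PLK1, PRC1 and SGO2.

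**Figure D1:**
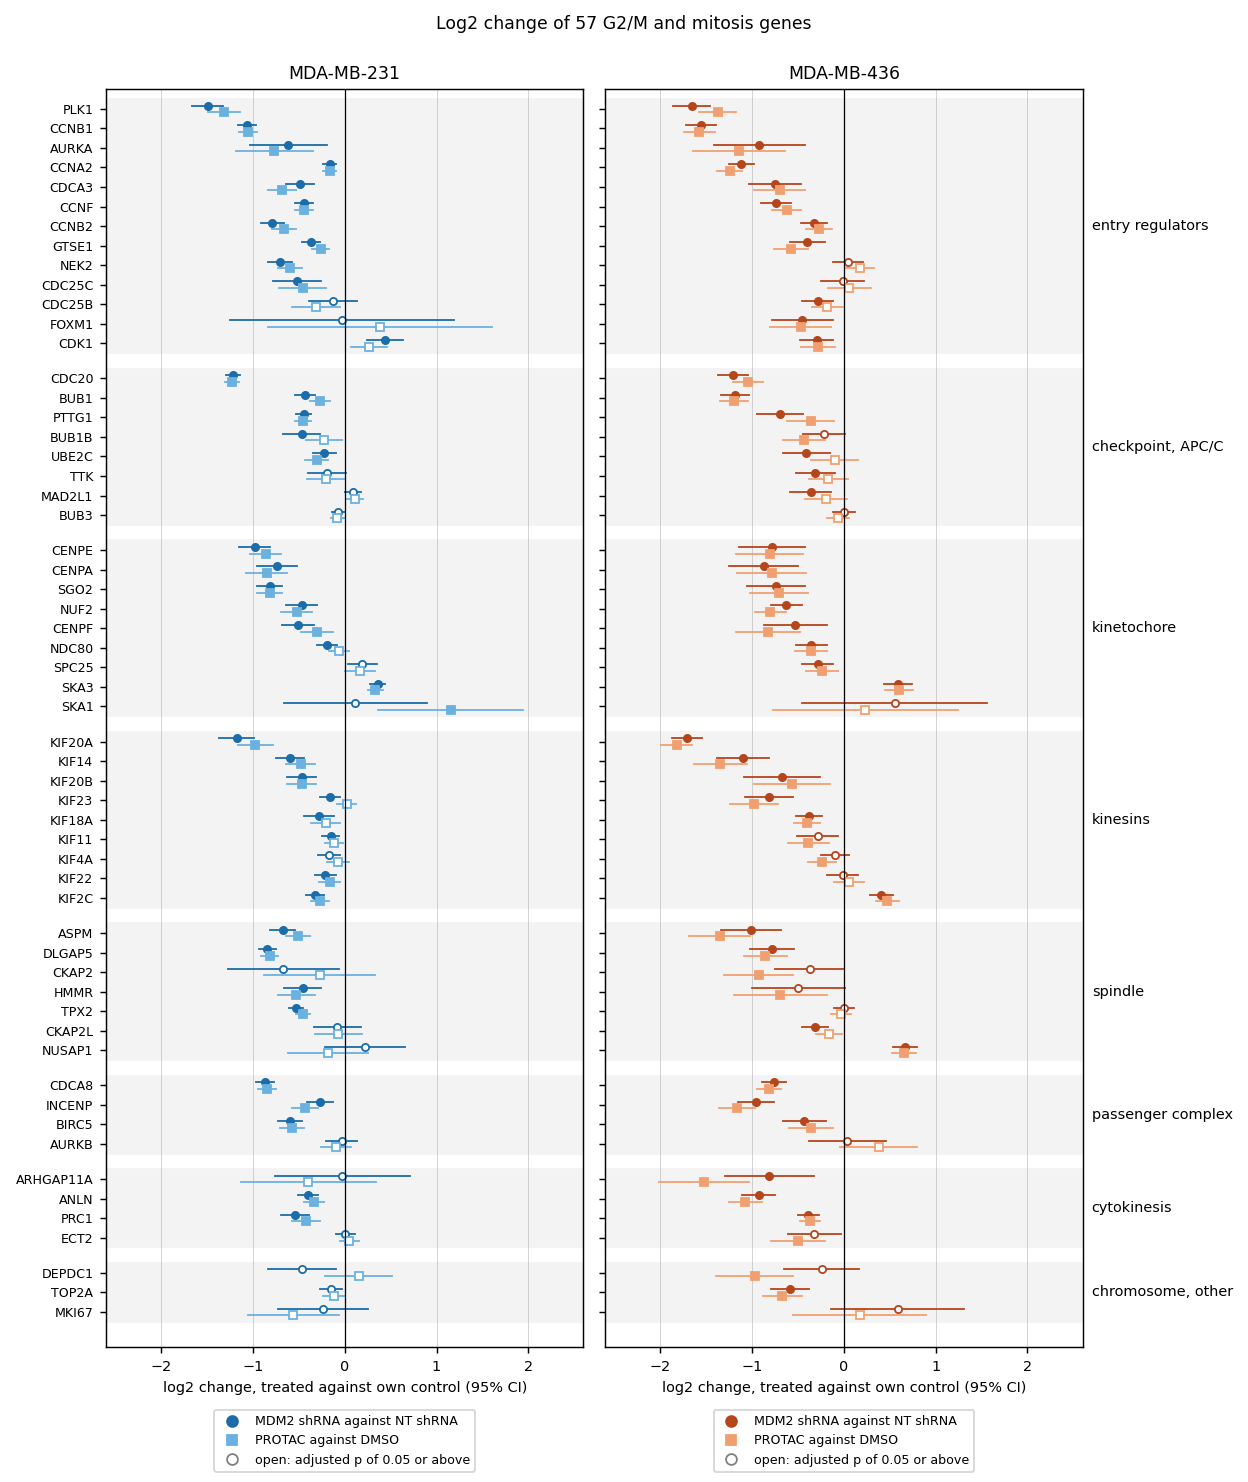
Log2 change of the 57 genes (rows, grouped by role) against the own control in MDA-MB-231 (left) and MDA-MB-436 (right), circles for MDM2 shRNA and squares for the PROTAC, with 95% confidence intervals; filled symbols have an adjusted p under 0.05. PLK1, CCNB1, CDC20 and KIF20A lie farthest to the left in MDA-MB-231, and SKA3 lies to the right of 0 in both lines.

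Of the 13 regulators of entry, 10 were lower with the hairpin and 10 with the PROTAC in MDA-MB-231, and 11 and 10 in MDA-MB-436, with median log2 changes of -0.48, -0.46, -0.45 and -0.58. Values with ± are log2 changes from edgeR with approximate standard errors. Each error is the size of the change divided by the square root of the F statistic of its test. The 95% intervals rest on these errors and the t distribution. Adjusted p follow Benjamini and Hochberg over all genes tested. PLK1 (ENSG00000166851, chr16:23677656-23690367, + strand) encodes Polo-like kinase 1, which drives entry, centrosome maturation and cytokinesis. In MDA-MB-231, PLK1 stood at 143, 138 and 144 CPM with NT shRNA, 49.3, 53.9 and 47.9 with MDM2 shRNA, 144, 131 and 143 with DMSO and 59.4, 49.1 and 59.4 with the PROTAC. In MDA-MB-436, PLK1 stood at 134, 138 and 141 CPM with NT shRNA, 43.7, 44.7 and 42.1 with MDM2 shRNA, 126, 124 and 121 with DMSO and 44.3, 42.9 and 55.5 with the PROTAC. PLK1 had log2 changes of -1.49 ± 0.078 with the hairpin and -1.32 ± 0.078 with the PROTAC in MDA-MB-231, and of -1.66 ± 0.091 and -1.38 ± 0.09 in MDA-MB-436, with adjusted p of 3.28e-07, 7.6e-07, 2.63e-07 and 8.6e-07. All treated libraries of both lines were below all controls, and the 3 libraries of each group lay close together. CCNB1 (ENSG00000134057, chr5:69167010-69178245, + strand) encodes cyclin B1, the partner of CDK1. In MDA-MB-231, CCNB1 stood at 353, 335 and 338 CPM with NT shRNA, 163, 162 and 164 with MDM2 shRNA, 346, 340.0 and 335 with DMSO and 168, 152 and 170.0 with the PROTAC. The CCNB1 values in MDA-MB-436 were 288, 279.5 and 301 CPM with NT shRNA, 98, 99.1 and 97.6 with MDM2 shRNA, 262, 288 and 279 with DMSO and 101, 94.8 and 82.3 with the PROTAC. CCNB1 had log2 changes of -1.06 ± 0.045 with the hairpin and -1.06 ± 0.045 with the PROTAC in MDA-MB-231, and of -1.56 ± 0.076 and -1.57 ± 0.076 in MDA-MB-436, with adjusted p of 8.44e-08, 1.03e-07, 1.17e-07 and 1.13e-07. No treated library reached a control, and the fall was larger in MDA-MB-436 in each arm.

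CDK1 (ENSG00000170312, chr10:60778331-60794852, + strand), the kinase that cyclin B1 activates, did not follow it in MDA-MB-231. In MDA-MB-231, CDK1 stood at 178, 163 and 165 CPM with NT shRNA, 222, 231 and 232 with MDM2 shRNA, 159, 204 and 191 with DMSO and 219.6, 243 and 203 with the PROTAC. In MDA-MB-436, CDK1 stood at 189, 182 and 166 CPM with NT shRNA, 150.5, 139 and 148 with MDM2 shRNA, 181, 195 and 182 with DMSO and 159.5, 134 and 165 with the PROTAC. CDK1 had log2 changes of 0.43 ± 0.089 with the hairpin and 0.26 ± 0.088 with the PROTAC in MDA-MB-231, and of -0.30 ± 0.083 and -0.28 ± 0.083 in MDA-MB-436, with adjusted p of 0.00466, 0.0542, 0.0175 and 0.0214. The hairpin groups of MDA-MB-231 did not overlap and rose, while DMSO and PROTAC overlapped by 1 library each; in MDA-MB-436 treated libraries lay below their controls in both arms. The PROTAC value in MDA-MB-231 passed the threshold without DMSO library 2 (0.33, adjusted p = 0.0315) or PROTAC library 3 (0.33, adjusted p = 0.0355), and also without scaling (0.35, adjusted p = 0.0165), with a minimum of 1 CPM (0.0488), with DESeq2 (0.0311), with limma voom (0.0444) and in one fit of all libraries (0.035). The falls in MDA-MB-436 missed it without any of NT shRNA libraries 1 and 2 and MDM2 shRNA library 2 (adjusted p of 0.0723, 0.0556 and 0.0645) or DMSO libraries 2 and 3 and PROTAC library 2 (0.0978, 0.0599 and 0.0517), and without scaling (-0.12 in each arm, adjusted p of 0.36 and 0.358), and the PROTAC fall also in the 6 libraries alone (-0.27, adjusted p = 0.107). AURKA (ENSG00000087586, chr20:56369389-56392337, - strand) encodes Aurora kinase A, which matures centrosomes and activates PLK1. In MDA-MB-231, AURKA stood at 187, 296 and 182 CPM with NT shRNA, 142, 144 and 148 with MDM2 shRNA, 269, 182 and 287 with DMSO and 146, 140.0 and 147 with the PROTAC. The AURKA values in MDA-MB-436 were 175, 292 and 184 CPM with NT shRNA, 134, 132 and 77.2 with MDM2 shRNA, 243, 292 and 287 with DMSO and 135, 127 and 110.3 with the PROTAC. AURKA had log2 changes of -0.62 ± 0.19 with the hairpin and -0.77 ± 0.19 with the PROTAC in MDA-MB-231, and of -0.92 ± 0.23 and -1.15 ± 0.23 in MDA-MB-436, with adjusted p of 0.0382, 0.0133, 0.00877 and 0.00231. Treated libraries were below all controls, but the controls themselves fell into a lower and a higher level in 3 of the 4 control groups. In MDA-MB-231 the hairpin call was lost without NT shRNA library 2 (-0.37, adjusted p = 0.126) and without any MDM2 shRNA library (adjusted p of 0.0994, 0.0925 and 0.0854) or PROTAC library (0.0528, 0.0532 and 0.0531), and the PROTAC call without DMSO library 3 (-0.65, adjusted p = 0.0542). The hairpin call was also lost without scaling, with limma voom, in one fit of all libraries and in a fit of the 6 libraries alone, with adjusted p of 0.0697, 0.0618, 0.0777 and 0.0561.

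FOXM1 (ENSG00000111206, chr12:2857681-2877155, - strand) encodes a transcription factor that activates many G2/M genes together with MuvB. In MDA-MB-231, FOXM1 stood at 265, 102 and 276 CPM with NT shRNA, 262, 111 and 257 with MDM2 shRNA, 271, 97.3 and 91.4 with DMSO and 258, 249.7 and 91.7 with the PROTAC. In MDA-MB-436, FOXM1 stood at 137, 213 and 145 CPM with NT shRNA, 112, 122 and 128 with MDM2 shRNA, 162, 143 and 158 with DMSO and 97.1, 121 and 117 with the PROTAC. FOXM1 had log2 changes of -0.03 ± 0.55 with the hairpin and 0.38 ± 0.55 with the PROTAC in MDA-MB-231, and of -0.45 ± 0.15 and -0.47 ± 0.15 in MDA-MB-436, with adjusted p of 0.981, 0.701, 0.0401 and 0.0322. In MDA-MB-231 the libraries lay at about 1 of 2 levels in each group, regardless of treatment, so that no change could be read. In MDA-MB-436 the calls were lost without NT shRNA library 2 for the hairpin (-0.23, adjusted p = 0.142) and PROTAC library 1 for the PROTAC (-0.39, adjusted p = 0.102). Leaving out any MDM2 shRNA library (adjusted p of 0.119, 0.0871 and 0.062) or DMSO libraries 1 or 3 (0.05 and 0.0512 for the hairpin, 0.0945 and 0.0894 for the PROTAC) ended them as well, as did no scaling (adjusted p of 0.201 and 0.146), and, for the hairpin, a fit of the 6 libraries alone (0.0629); in one fit of all libraries the adjusted p were 0.489 and 0.472. Among the other entry genes, cyclin A2 stood out for the size of its difference between lines, with log2 changes of -0.16 and -0.16 in MDA-MB-231 and -1.12 and -1.25 in MDA-MB-436. Cyclin B2 showed the other order, -0.79 and -0.66 against -0.33 and -0.27. Cyclin F (CCNF), a subunit of an SCF ubiquitin ligase, had -0.44, -0.44, -0.74 and -0.62, CDCA3, which promotes entry through WEE1 degradation, -0.48, -0.69, -0.75 and -0.70, and GTSE1, a microtubule-binding protein of G2 and S phase, -0.37, -0.26, -0.40 and -0.58. All of these were called in each comparison. NEK2, a kinase that separates centrosomes, fell in MDA-MB-231 (-0.71 and -0.60) and was not called in MDA-MB-436 (0.05 and 0.17), and so did the phosphatase CDC25C (-0.52 and -0.46 against -0.01 and 0.06). CDC25B was called lower with the hairpin in MDA-MB-436 alone (-0.28), where the other 3 values were -0.13, -0.32 and -0.18. Its PROTAC value in MDA-MB-231 (-0.32, adjusted p = 0.0806) was called, for instance, without MDM2 shRNA library 2 (0.0431). For CCNA2, the hairpin call in MDA-MB-231 was lost without scaling and in one fit of all libraries (adjusted p of 0.2 and 0.0673). The CCNA2 PROTAC call in MDA-MB-231 was lost without scaling and in one fit of all libraries (adjusted p of 0.101 and 0.069). For CCNB2, the hairpin call in MDA-MB-436 was lost without scaling (adjusted p = 0.108). The CCNB2 PROTAC call in MDA-MB-436 was lost without scaling and in the 6 libraries alone (adjusted p of 0.258 and 0.0776). For GTSE1, the hairpin call in MDA-MB-436 was lost without scaling (adjusted p = 0.0574). For CDC25C, the PROTAC call in MDA-MB-231 was lost without DMSO library 1 or PROTAC library 2 (adjusted p of 0.0645 to 0.0652). For CDC25B, the hairpin call in MDA-MB-436 was lost without NT shRNA library 2 or MDM2 shRNA libraries 2 or 3 (adjusted p of 0.0522 to 0.0766) and without scaling (adjusted p = 0.333).

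Among the 8 genes of the checkpoint and of anaphase onset, 5 were lower with the hairpin and 4 with the PROTAC in MDA-MB-231, and 6 and 4 in MDA-MB-436, with medians of -0.33, -0.25, -0.39 and -0.28. CDC20 (ENSG00000117399, chr1:43358955-43363203, + strand) encodes the activator of the APC/C that the checkpoint holds in check. In MDA-MB-231, CDC20 stood at 543, 525 and 546 CPM with NT shRNA, 228, 236 and 229.9 with MDM2 shRNA, 544, 507 and 534 with DMSO and 225, 222 and 229 with the PROTAC. The CDC20 values in MDA-MB-436 were 484, 499 and 512 CPM with NT shRNA, 217, 215 and 214 with MDM2 shRNA, 438, 447 and 423 with DMSO and 237, 211 and 187 with the PROTAC. CDC20 had log2 changes of -1.22 ± 0.036 with the hairpin and -1.23 ± 0.036 with the PROTAC in MDA-MB-231, and of -1.21 ± 0.075 and -1.04 ± 0.075 in MDA-MB-436, with adjusted p of 1.09e-08, 1.21e-08, 6.39e-07 and 1.73e-06. It fell by nearly the same amount in all 4 comparisons, and the highest treated library was far below the lowest control. BUB1 (ENSG00000169679, chr2:110637698-110678114, - strand) encodes a checkpoint kinase of the kinetochore. In MDA-MB-231, BUB1 stood at 229, 210.5 and 224 CPM with NT shRNA, 165, 158 and 167 with MDM2 shRNA, 200.5, 214 and 200.4 with DMSO and 177, 163 and 171 with the PROTAC. In MDA-MB-436, BUB1 stood at 247, 266 and 272 CPM with NT shRNA, 113, 116 and 116 with MDM2 shRNA, 272, 274 and 282 with DMSO and 108, 122 and 130.5 with the PROTAC. BUB1 had log2 changes of -0.44 ± 0.049 with the hairpin and -0.27 ± 0.049 with the PROTAC in MDA-MB-231, and of -1.19 ± 0.071 and -1.20 ± 0.071 in MDA-MB-436, with adjusted p of 8.81e-05, 0.00238, 4.91e-07 and 4.47e-07. Treated libraries were below all controls in each comparison, with much larger falls in MDA-MB-436. BUB3 (ENSG00000154473, chr10:123154277-123170467, + strand) encodes the protein that brings BUB1 to kinetochores. In MDA-MB-231, BUB3 stood at 397, 395 and 396 CPM with NT shRNA, 368, 384 and 379 with MDM2 shRNA, 389.5, 410.4 and 409 with DMSO and 383, 385 and 374 with the PROTAC. The BUB3 values in MDA-MB-436 were 202, 195 and 207 CPM with NT shRNA, 195, 198 and 212 with MDM2 shRNA, 208, 208 and 207 with DMSO and 205, 198 and 192 with the PROTAC. BUB3 had log2 changes of -0.07 ± 0.033 with the hairpin and -0.08 ± 0.033 with the PROTAC in MDA-MB-231, and of 0.00 ± 0.054 and -0.07 ± 0.054 in MDA-MB-436, with adjusted p of 0.16, 0.0982, 0.995 and 0.394. The changes were below 0.1 in size and none passed the test, and the sign in the hairpin arm of MDA-MB-436 depended on the settings; without scaling that value was 0.18 (adjusted p = 0.0177). Securin (PTTG1), which blocks separase until anaphase, was lower in each comparison (-0.45, -0.46, -0.70 and -0.36), and the APC/C ubiquitin-conjugating enzyme UBE2C in 3 of them (-0.22, -0.30 and -0.41, with -0.10 for the PROTAC in MDA-MB-436). The checkpoint kinase BUB1B was called lower with the hairpin in MDA-MB-231 (-0.47) and the PROTAC in MDA-MB-436 (-0.43), and had -0.22 and -0.22 in the other comparisons. The checkpoint kinase TTK and the APC/C inhibitor MAD2L1 were each called with the hairpin in MDA-MB-436 (-0.31 and -0.36); MAD2L1 had 0.09 and 0.11 in MDA-MB-231, neither of which passed the test. Without PROTAC library 3 of MDA-MB-436 both were also called lower with the PROTAC there (-0.32 and -0.35, adjusted p of 0.00111 and 0.001), and TTK with the PROTAC in MDA-MB-231 without its PROTAC library 1 (-0.29, adjusted p = 0.0482). For PTTG1, the PROTAC call in MDA-MB-436 was lost without NT shRNA libraries 1, 2 or 3, DMSO libraries 2 or 3 or PROTAC libraries 2 or 3 (adjusted p of 0.0568 to 0.137) and without scaling, without a filter and in the 6 libraries alone (adjusted p of 0.223, 0.0554 and 0.132). For UBE2C, the hairpin call in MDA-MB-231 was lost without MDM2 shRNA libraries 1 or 3 (adjusted p of 0.0614 to 0.0621) and without scaling, in one fit of all libraries and in the 6 libraries alone (adjusted p of 0.135, 0.173 and 0.0518). The UBE2C PROTAC call in MDA-MB-231 was lost in one fit of all libraries (adjusted p = 0.0538). The UBE2C hairpin call in MDA-MB-436 was lost without NT shRNA libraries 1 or 3 or MDM2 shRNA library 3 (adjusted p of 0.0617 to 0.0837) and without scaling (adjusted p = 0.175). For BUB1B, the PROTAC call in MDA-MB-436 was lost without scaling (adjusted p = 0.0759). For TTK, the hairpin call in MDA-MB-436 was lost without NT shRNA libraries 1, 2 or 3 or MDM2 shRNA libraries 1, 2 or 3 (adjusted p of 0.0592 to 0.0986) and without scaling (adjusted p = 0.366). For MAD2L1, the hairpin call in MDA-MB-436 was lost without NT shRNA libraries 1 or 3 or MDM2 shRNA library 2 (adjusted p of 0.0515 to 0.067) and without scaling (adjusted p = 0.237).

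Of the 9 kinetochore genes, 6 and 5 were lower in MDA-MB-231 and 7 and 7 in MDA-MB-436 (medians of -0.47, -0.30, -0.53 and -0.71), and 1, 2, 1 and 1 were higher. CENPE (ENSG00000138778, chr4:103105806-103198409, - strand) encodes a kinetochore motor that carries chromosomes to the spindle equator. In MDA-MB-231, CENPE stood at 245, 257 and 238 CPM with NT shRNA, 124, 114 and 136 with MDM2 shRNA, 234, 267 and 267 with DMSO and 147, 146 and 129.7 with the PROTAC. In MDA-MB-436, CENPE stood at 132, 127 and 131 CPM with NT shRNA, 78.2, 72.5 and 75.4 with MDM2 shRNA, 142, 133 and 149.8 with DMSO and 57.7, 78 and 107 with the PROTAC. CENPE had log2 changes of -0.98 ± 0.078 with the hairpin and -0.86 ± 0.078 with the PROTAC in MDA-MB-231, and of -0.79 ± 0.16 and -0.81 ± 0.16 in MDA-MB-436, with adjusted p of 6.87e-06, 1.67e-05, 0.00351 and 0.00272. Each treated library was below its controls, and the PROTAC libraries of MDA-MB-436 were spread from 57.7 to 107 CPM. CENPA (ENSG00000115163, chr2:26764289-26801067, + strand) encodes the histone H3 variant that marks centromeres. In MDA-MB-231, CENPA stood at 30.3, 30.1 and 30.6 CPM with NT shRNA, 17.5, 20 and 17.1 with MDM2 shRNA, 33.1, 27 and 29 with DMSO and 16.2, 14.9 and 18.3 with the PROTAC. The CENPA values in MDA-MB-436 were 18.2, 16.1 and 17.6 CPM with NT shRNA, 9.37, 9.44 and 9.42 with MDM2 shRNA, 15.2, 17.8 and 16.9 with DMSO and 12, 10 and 6.82 with the PROTAC. CENPA had log2 changes of -0.74 ± 0.1 with the hairpin and -0.85 ± 0.1 with the PROTAC in MDA-MB-231, and of -0.88 ± 0.17 and -0.79 ± 0.17 in MDA-MB-436, with adjusted p of 0.000319, 0.000124, 0.00216 and 0.00397. CENPA fell in each comparison without overlap, and its exons overlap those of SLC35F6 on the same strand. SKA3 (ENSG00000165480, chr13:21153595-21176602, - strand) and SKA1 (ENSG00000154839, chr18:50374995-50394173, + strand) encode subunits of the complex that keeps kinetochores on shortening microtubules. In MDA-MB-231, SKA3 stood at 76.4, 73.6 and 73.4 CPM with NT shRNA, 93.1, 97.6 and 96.1 with MDM2 shRNA, 73.4, 72.7 and 73.8 with DMSO and 92, 93.1 and 91.6 with the PROTAC. In MDA-MB-436, SKA3 stood at 39.2, 35.7 and 39.3 CPM with NT shRNA, 55.9, 59.1 and 57.2 with MDM2 shRNA, 39.1, 39.5 and 39.5 with DMSO and 61.1, 56.1 and 61.8 with the PROTAC. SKA3 had log2 changes of 0.36 ± 0.037 with the hairpin and 0.33 ± 0.037 with the PROTAC in MDA-MB-231, and of 0.59 ± 0.068 and 0.60 ± 0.069 in MDA-MB-436, with adjusted p of 4.81e-05, 8.96e-05, 5.95e-05 and 5.01e-05. SKA3 rose without overlap in each comparison and was the one gene of the list called higher in all 4.

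In MDA-MB-231, SKA1 stood at 39, 37.7 and 38.3 CPM with NT shRNA, 39, 42 and 43.7 with MDM2 shRNA, 36.3, 10.9 and 11.9 with DMSO and 45.3, 44.5 and 42 with the PROTAC. The SKA1 values in MDA-MB-436 were 32.8, 31.8 and 33.5 CPM with NT shRNA, 19.4, 60.9 and 63.8 with MDM2 shRNA, 32.7, 30.9 and 32.9 with DMSO and 18.6, 66.9 and 27.7 with the PROTAC. SKA1 had log2 changes of 0.12 ± 0.35 with the hairpin and 1.16 ± 0.36 with the PROTAC in MDA-MB-231, and of 0.55 ± 0.46 and 0.23 ± 0.46 in MDA-MB-436, with adjusted p of 0.866, 0.0399, 0.42 and 0.748. Of the DMSO libraries of MDA-MB-231, 2 were near 11 CPM and the third near the level of the other groups, and in MDA-MB-436 both treated groups held libraries below and above all controls. The one call, with the PROTAC in MDA-MB-231, was lost when any library of the line but DMSO library 1 was left out (adjusted p of 0.054 to 0.129), with no filter (0.0503), in one fit of all libraries (0.0975) and in the 6 libraries alone (0.122). The centromere and kinetochore proteins CENPF (-0.51, -0.30, -0.53 and -0.83) and SGO2 (-0.82, -0.82, -0.74 and -0.71), which protects cohesion, were lower in each comparison. Within the NDC80 complex, which binds microtubules, the subunits differed. NUF2 was lower in all 4 (-0.47, -0.52, -0.63 and -0.80), NDC80 in 3 (-0.19, -0.36 and -0.36, with -0.06 for the PROTAC in MDA-MB-231), and SPC25 in MDA-MB-436 (-0.28 and -0.24), with values of 0.19 and 0.17 in MDA-MB-231 that were not called. For CENPF, the PROTAC call in MDA-MB-231 was lost without DMSO library 1 or PROTAC libraries 2 or 3 (adjusted p of 0.0504 to 0.0739) and without scaling and in one fit of all libraries (adjusted p of 0.0754 and 0.144). The CENPF hairpin call in MDA-MB-436 was lost without NT shRNA libraries 1, 2 or 3 or MDM2 shRNA libraries 1 or 2 (adjusted p of 0.051 to 0.0701) and without scaling (adjusted p = 0.118). For NDC80, the hairpin call in MDA-MB-231 was lost without MDM2 shRNA library 2 (adjusted p = 0.0528) and without scaling (adjusted p = 0.219). The NDC80 hairpin call in MDA-MB-436 was lost without scaling (adjusted p = 0.119). The NDC80 PROTAC call in MDA-MB-436 was lost without scaling (adjusted p = 0.0885). For SPC25, the hairpin call in MDA-MB-436 was lost without NT shRNA libraries 2 or 3 or MDM2 shRNA library 1 (adjusted p of 0.0531 to 0.0641) and without scaling (adjusted p = 0.349). The SPC25 PROTAC call in MDA-MB-436 was lost without NT shRNA libraries 1, 2 or 3, DMSO libraries 2 or 3 or PROTAC library 2 (adjusted p of 0.0678 to 0.14) and without scaling, without a filter and in the 6 libraries alone (adjusted p of 0.521, 0.106 and 0.135).

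Of the 9 kinesins, 8 and 5 were lower in MDA-MB-231 and 5 and 7 in MDA-MB-436, with medians of -0.28, -0.21, -0.38 and -0.41. KIF20A (ENSG00000112984, chr5:138178719-138187715, + strand) encodes a kinesin of the central spindle that is needed for cytokinesis. In MDA-MB-231, KIF20A stood at 213, 202 and 214 CPM with NT shRNA, 95.1, 92.5 and 90.7 with MDM2 shRNA, 214, 194 and 191 with DMSO and 118, 94.2 and 92.3 with the PROTAC. In MDA-MB-436, KIF20A stood at 133, 126 and 127 CPM with NT shRNA, 37.4, 38.4 and 42.5 with MDM2 shRNA, 134, 131 and 136 with DMSO and 36.4, 41.3 and 35.4 with the PROTAC. KIF20A had log2 changes of -1.18 ± 0.087 with the hairpin and -0.97 ± 0.087 with the PROTAC in MDA-MB-231, and of -1.71 ± 0.077 and -1.82 ± 0.077 in MDA-MB-436, with adjusted p of 4.24e-06, 1.55e-05, 6.75e-08 and 4.14e-08. It had the lowest value of the whole list in MDA-MB-436 in each arm, and no treated library reached a control; its exons overlap BRD8 and CDC23 on the other strand. KIF14 (ENSG00000118193, chr1:200551497-200620734, - strand) encodes another cytokinesis kinesin. In MDA-MB-231, KIF14 stood at 141, 145 and 132 CPM with NT shRNA, 91.3, 86.7 and 99.1 with MDM2 shRNA, 135, 141 and 139 with DMSO and 107, 101 and 89.5 with the PROTAC. The KIF14 values in MDA-MB-436 were 142, 134 and 128 CPM with NT shRNA, 56.3, 67.9 and 64.1 with MDM2 shRNA, 170.1, 158 and 175 with DMSO and 51.3, 69.5 and 77.3 with the PROTAC. KIF14 had log2 changes of -0.60 ± 0.071 with the hairpin and -0.48 ± 0.071 with the PROTAC in MDA-MB-231, and of -1.10 ± 0.13 and -1.35 ± 0.13 in MDA-MB-436, with adjusted p of 0.000122, 0.000592, 6.88e-05 and 1.53e-05. Treated libraries were below all controls in each comparison, with larger falls in MDA-MB-436. KIF2C (ENSG00000142945, chr1:44739818-44767767, + strand) encodes MCAK, which shortens microtubules at kinetochores. In MDA-MB-231, KIF2C stood at 313, 282 and 305 CPM with NT shRNA, 245, 244 and 230.4 with MDM2 shRNA, 304, 290.3 and 289 with DMSO and 243, 244 and 245 with the PROTAC. In MDA-MB-436, KIF2C stood at 258, 272 and 267 CPM with NT shRNA, 364, 349 and 343 with MDM2 shRNA, 245, 254 and 244 with DMSO and 349.7, 359 and 321 with the PROTAC. KIF2C had log2 changes of -0.32 ± 0.045 with the hairpin and -0.27 ± 0.045 with the PROTAC in MDA-MB-231, and of 0.41 ± 0.056 and 0.47 ± 0.056 in MDA-MB-436, with adjusted p of 0.000382, 0.0012, 0.000201 and 6.32e-05. KIF2C fell in MDA-MB-231 and rose in MDA-MB-436 in both arms, with no overlap between treated and control libraries in any comparison. KIF20B, a cytokinesis kinesin, was lower in all 4 (-0.47, -0.47, -0.68 and -0.56). KIF23, a subunit of centralspindlin, was called lower in 3, with -0.16 and 0.02 (not called) in MDA-MB-231 and -0.82 and -0.98 in MDA-MB-436. KIF18A, which dampens chromosome movement, and the spindle bipolarity motor KIF11 had changes between -0.41 and -0.12, called in 3 comparisons for KIF18A and in 2 for KIF11. The KIF18A value with the PROTAC in MDA-MB-231 (-0.21, adjusted p = 0.0617) was called, for instance, without NT shRNA library 3 (0.0325). The chromosome-arm motor KIF22 was lower in MDA-MB-231 (-0.21 and -0.16) and had -0.01 and 0.05 in MDA-MB-436. KIF4A, which shapes the anaphase midzone, was called with the PROTAC in MDA-MB-436 alone (-0.24), the other values being -0.17, -0.07 and -0.10. Its hairpin value in MDA-MB-231 was near the threshold (adjusted p = 0.0507). That value was called, for instance, without MDM2 shRNA library 3 (0.0263) or DMSO libraries 1 or 3 (0.0467 and 0.0476). The KIF20B value with the PROTAC in MDA-MB-436 was -0.36 without PROTAC library 1 and -0.90 without PROTAC library 3. For KIF20B, the hairpin call in MDA-MB-436 was lost without MDM2 shRNA library 3 (adjusted p = 0.0563) and without scaling (adjusted p = 0.0745). The KIF20B PROTAC call in MDA-MB-436 was lost without NT shRNA libraries 1, 2 or 3, DMSO libraries 1, 2 or 3 or PROTAC libraries 1 or 2 (adjusted p of 0.059 to 0.106) and without scaling and in the 6 libraries alone (adjusted p of 0.145 and 0.141). For KIF23, the hairpin call in MDA-MB-231 was lost without NT shRNA libraries 1 or 2 or MDM2 shRNA libraries 2 or 3 (adjusted p of 0.0535 to 0.0845) and without scaling, without a filter, in one fit of all libraries and in the 6 libraries alone (adjusted p of 0.416, 0.0606, 0.244 and 0.0764). For KIF18A, the hairpin call in MDA-MB-231 was lost without NT shRNA library 1 or MDM2 shRNA libraries 1 or 3 (adjusted p of 0.0553 to 0.0631) and without scaling (adjusted p = 0.103). For KIF11, the hairpin call in MDA-MB-231 was lost without NT shRNA libraries 1 or 2 or MDM2 shRNA libraries 1 or 2 (adjusted p of 0.0506 to 0.0837) and without scaling, without a filter and in one fit of all libraries (adjusted p of 0.451, 0.0506 and 0.201). The KIF11 PROTAC call in MDA-MB-436 was lost without scaling and in the 6 libraries alone (adjusted p of 0.131 and 0.0778). For KIF22, the hairpin call in MDA-MB-231 was lost without MDM2 shRNA libraries 1 or 3 (adjusted p of 0.0526 to 0.0594) and without scaling and in one fit of all libraries (adjusted p of 0.141 and 0.0856). The KIF22 PROTAC call in MDA-MB-231 was lost without NT shRNA libraries 1, 2 or 3, MDM2 shRNA libraries 1 or 3, DMSO libraries 1 or 3 or PROTAC libraries 2 or 3 (adjusted p of 0.058 to 0.179) and without scaling, without a filter, in one fit of all libraries and in the 6 libraries alone (adjusted p of 0.299, 0.106, 0.207 and 0.103). For KIF4A, the PROTAC call in MDA-MB-436 was lost without DMSO libraries 1, 2 or 3 (adjusted p of 0.0529 to 0.0881) and without scaling, without a filter and in the 6 libraries alone (adjusted p of 0.431, 0.0963 and 0.116).

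Of the 7 other spindle genes, 4 and 4 were lower in MDA-MB-231 and 3 and 4 in MDA-MB-436, with medians of -0.54, -0.45, -0.37 and -0.69. ASPM (ENSG00000066279, chr1:197084128-197146694, - strand) encodes a protein of the spindle poles. In MDA-MB-231, ASPM stood at 269, 272 and 261 CPM with NT shRNA, 158, 164 and 179.8 with MDM2 shRNA, 250.3, 269.7 and 261 with DMSO and 194, 185 and 169.6 with the PROTAC. The ASPM values in MDA-MB-436 were 252, 234 and 227 CPM with NT shRNA, 103, 122 and 129 with MDM2 shRNA, 342, 280.1 and 332 with DMSO and 95.6, 125 and 152 with the PROTAC. ASPM had log2 changes of -0.68 ± 0.06 with the hairpin and -0.51 ± 0.06 with the PROTAC in MDA-MB-231, and of -1.01 ± 0.15 and -1.35 ± 0.15 in MDA-MB-436, with adjusted p of 1.57e-05, 0.00012, 0.000345 and 4.08e-05. It fell without overlap in each comparison; a larger fall in MDA-MB-436 was called as a difference between the lines with the PROTAC alone. DLGAP5 (ENSG00000126787, chr14:55148112-55191678, - strand), also called HURP, encodes a protein that stabilises microtubules near chromosomes. In MDA-MB-231, DLGAP5 stood at 280.3, 270.4 and 281 CPM with NT shRNA, 161, 148 and 154 with MDM2 shRNA, 274, 279.8 and 274 with DMSO and 163, 154 and 152 with the PROTAC. In MDA-MB-436, DLGAP5 stood at 118, 114 and 119 CPM with NT shRNA, 63.1, 72 and 69.3 with MDM2 shRNA, 128, 126 and 121 with DMSO and 58.5, 66.4 and 82.7 with the PROTAC. DLGAP5 had log2 changes of -0.85 ± 0.042 with the hairpin and -0.82 ± 0.042 with the PROTAC in MDA-MB-231, and of -0.78 ± 0.11 and -0.86 ± 0.11 in MDA-MB-436, with adjusted p of 2.38e-07, 3.01e-07, 0.000203 and 0.0001. Its changes were near one value in both arms of both lines. NUSAP1 (ENSG00000137804, chr15:41332694-41381050, + strand) encodes a microtubule bundling protein. In MDA-MB-231, NUSAP1 stood at 131, 185 and 130.3 CPM with NT shRNA, 150.0, 223 and 146 with MDM2 shRNA, 129.5, 191 and 192 with DMSO and 153, 150.5 and 148 with the PROTAC. The NUSAP1 values in MDA-MB-436 were 157, 150.0 and 156 CPM with NT shRNA, 244, 247 and 243 with MDM2 shRNA, 154, 173 and 155 with DMSO and 241, 254 and 261 with the PROTAC. NUSAP1 had log2 changes of 0.22 ± 0.2 with the hairpin and -0.18 ± 0.2 with the PROTAC in MDA-MB-231, and of 0.67 ± 0.059 and 0.65 ± 0.059 in MDA-MB-436, with adjusted p of 0.508, 0.586, 8.63e-06 and 9.67e-06. In MDA-MB-436 it rose without overlap in both arms, while in MDA-MB-231 single libraries of 3 groups stood apart from the rest of their group and the groups overlapped. TPX2, which activates AURKA on the spindle, was lower in MDA-MB-231 (-0.53 and -0.45) and had 0.0022 and -0.03 in MDA-MB-436. HMMR, which helps spindle assembly, was called lower in 3 comparisons (-0.46, -0.53 and -0.69, with -0.50 for the hairpin in MDA-MB-436). CKAP2, a microtubule-associated protein, was called with the PROTAC in MDA-MB-436 (-0.93) and its relative CKAP2L with the hairpin there (-0.32). With the hairpin in MDA-MB-231, CKAP2 had -0.67 (adjusted p = 0.111). It was called there, for instance, without NT shRNA library 3 (-0.885, adjusted p = 0.0487) or MDM2 shRNA library 2 (-0.926, adjusted p = 0.0486). Its libraries differed by over 1.5-fold within 5 groups. For HMMR, the hairpin call in MDA-MB-231 was lost in one fit of all libraries (adjusted p = 0.0979). The HMMR PROTAC call in MDA-MB-231 was lost in one fit of all libraries (adjusted p = 0.0539). The HMMR PROTAC call in MDA-MB-436 was lost without NT shRNA libraries 1 or 3, DMSO libraries 1 or 3 or PROTAC libraries 1 or 2 (adjusted p of 0.0547 to 0.12) and without scaling and in the 6 libraries alone (adjusted p of 0.108 and 0.0975). For CKAP2L, the hairpin call in MDA-MB-436 was lost without scaling (adjusted p = 0.117).

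Of the 4 passenger genes, which form the complex that corrects wrong attachments, the 3 partners of the kinase were lower in each comparison and the kinase itself in none. CDCA8 (ENSG00000134690, chr1:37692418-37709719, + strand) encodes borealin. In MDA-MB-231, CDCA8 stood at 206, 191 and 199 CPM with NT shRNA, 108, 108 and 110.5 with MDM2 shRNA, 201, 185 and 193 with DMSO and 107, 104 and 110.0 with the PROTAC. In MDA-MB-436, CDCA8 stood at 180.3, 169.9 and 179 CPM with NT shRNA, 104, 105 and 102 with MDM2 shRNA, 174, 166 and 174 with DMSO and 97.8, 103 and 90.5 with the PROTAC. CDCA8 had log2 changes of -0.87 ± 0.044 with the hairpin and -0.85 ± 0.044 with the PROTAC in MDA-MB-231, and of -0.76 ± 0.06 and -0.82 ± 0.06 in MDA-MB-436, with adjusted p of 2.63e-07, 3.48e-07, 3.67e-06 and 2.05e-06. The falls were of like size in both lines and arms, and no groups overlapped. INCENP (ENSG00000149503, chr11:62123973-62153163, + strand) encodes the scaffold of the complex. In MDA-MB-231, INCENP stood at 120.1, 112 and 125 CPM with NT shRNA, 101, 94.7 and 100.4 with MDM2 shRNA, 128, 118 and 121 with DMSO and 96.9, 83.3 and 91.9 with the PROTAC. The INCENP values in MDA-MB-436 were 188, 174 and 192 CPM with NT shRNA, 85.6, 98.8 and 99.3 with MDM2 shRNA, 226, 208 and 213 with DMSO and 84.1, 100.3 and 104 with the PROTAC. INCENP had log2 changes of -0.27 ± 0.064 with the hairpin and -0.43 ± 0.065 with the PROTAC in MDA-MB-231, and of -0.96 ± 0.089 and -1.17 ± 0.09 in MDA-MB-436, with adjusted p of 0.0108, 0.000669, 1.15e-05 and 2.8e-06. Here too treated and control libraries did not overlap, and MDA-MB-436 had the larger falls; without scaling the hairpin value in MDA-MB-231 missed the threshold (-0.17, adjusted p = 0.0641). Survivin (BIRC5), which brings the complex to centromeres, had -0.60, -0.58, -0.43 and -0.36. For BIRC5, the hairpin call in MDA-MB-436 was lost without scaling (adjusted p = 0.0986). The BIRC5 PROTAC call in MDA-MB-436 was lost without DMSO libraries 1, 2 or 3 or PROTAC library 3 (adjusted p of 0.0572 to 0.0852) and without scaling, without a filter and in the 6 libraries alone (adjusted p of 0.183, 0.0599 and 0.056). AURKB (ENSG00000178999, chr17:8204733-8210600, - strand) encodes Aurora kinase B, the enzyme of the complex. In MDA-MB-231, AURKB stood at 95.1, 95 and 98.6 CPM with NT shRNA, 91, 94.2 and 97.2 with MDM2 shRNA, 105, 85.6 and 109 with DMSO and 92.7, 95.2 and 93.2 with the PROTAC. In MDA-MB-436, AURKB stood at 77.9, 79.5 and 87 CPM with NT shRNA, 87.1, 74.5 and 89.2 with MDM2 shRNA, 66.6, 67.2 and 65.8 with DMSO and 110.2, 94.4 and 55 with the PROTAC. AURKB had log2 changes of -0.03 ± 0.076 with the hairpin and -0.10 ± 0.076 with the PROTAC in MDA-MB-231, and of 0.04 ± 0.19 and 0.38 ± 0.19 in MDA-MB-436, with adjusted p of 0.833, 0.439, 0.916 and 0.158. The AURKB groups overlapped in each comparison, and the PROTAC libraries of MDA-MB-436 ran from below to above all DMSO libraries. With PROTAC library 3 left out that value was 0.62 (adjusted p = 0.000538), without scaling it was 0.54 (adjusted p = 0.0433), and without DMSO library 2 the PROTAC value in MDA-MB-231 was -0.21 (adjusted p = 0.011).

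Of the 4 cytokinesis genes, 2 and 2 were lower in MDA-MB-231 and 3 and 4 in MDA-MB-436, with medians of -0.21, -0.36, -0.60 and -0.79. ANLN (ENSG00000011426, chr7:36389806-36453791, + strand) encodes anillin, the scaffold of the contractile ring. In MDA-MB-231, ANLN stood at 443, 436 and 442 CPM with NT shRNA, 326, 325 and 348 with MDM2 shRNA, 423, 463 and 416 with DMSO and 360.5, 337 and 336 with the PROTAC. The ANLN values in MDA-MB-436 were 230.2, 218 and 222 CPM with NT shRNA, 111, 120.2 and 121 with MDM2 shRNA, 265, 264 and 277 with DMSO and 111, 131 and 140.4 with the PROTAC. ANLN had log2 changes of -0.40 ± 0.048 with the hairpin and -0.33 ± 0.048 with the PROTAC in MDA-MB-231, and of -0.93 ± 0.081 and -1.08 ± 0.081 in MDA-MB-436, with adjusted p of 0.000134, 0.000543, 7.59e-06 and 2.47e-06. No groups overlapped, and the falls were larger in MDA-MB-436. ARHGAP11A (ENSG00000198826, chr15:32615144-32639949, + strand) encodes a GTPase-activating protein with a partial copy in the human genome, ARHGAP11B. Whether reads of that copy bear on the ARHGAP11A counts was not tested. In MDA-MB-231, ARHGAP11A stood at 57.5, 86.2 and 45.1 CPM with NT shRNA, 59.8, 50.4 and 75.4 with MDM2 shRNA, 44.5, 91.8 and 84.8 with DMSO and 35, 61.3 and 71.9 with the PROTAC. In MDA-MB-436, ARHGAP11A stood at 126, 120.3 and 124 CPM with NT shRNA, 70.8, 71.1 and 69 with MDM2 shRNA, 156, 138 and 151 with DMSO and 33.5, 76.6 and 44.6 with the PROTAC. ARHGAP11A had log2 changes of -0.03 ± 0.33 with the hairpin and -0.40 ± 0.33 with the PROTAC in MDA-MB-231, and of -0.81 ± 0.22 and -1.52 ± 0.22 in MDA-MB-436, with adjusted p of 0.972, 0.468, 0.0153 and 0.000308. It fell in MDA-MB-436 without overlap, while the MDA-MB-231 libraries were scattered in each group and overlapped. PRC1, which bundles the central spindle, was lower in all 4 (-0.54, -0.42, -0.39 and -0.37), and ECT2, which sets off furrowing, was called with the PROTAC in MDA-MB-436 (-0.50) but had 0.01 and 0.05 in MDA-MB-231. For ECT2, the PROTAC call in MDA-MB-436 was lost without DMSO library 3 (adjusted p = 0.0514) and without scaling and in the 6 libraries alone (adjusted p of 0.0804 and 0.0613).

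The last 3 genes are TOP2A, MKI67 and DEPDC1, of which none was called in MDA-MB-231. TOP2A (ENSG00000131747, chr17:40388516-40417950, - strand) encodes topoisomerase II alpha, which untangles sister chromatids. In MDA-MB-231, TOP2A stood at 1025, 1042 and 996 CPM with NT shRNA, 960.4, 835 and 959.6 with MDM2 shRNA, 1015, 1073 and 1058 with DMSO and 995, 984 and 925 with the PROTAC. The TOP2A values in MDA-MB-436 were 459.8, 461 and 471 CPM with NT shRNA, 304, 317 and 306 with MDM2 shRNA, 497, 484 and 511 with DMSO and 262, 310.1 and 366 with the PROTAC. TOP2A had log2 changes of -0.15 ± 0.054 with the hairpin and -0.12 ± 0.054 with the PROTAC in MDA-MB-231, and of -0.59 ± 0.095 and -0.67 ± 0.096 in MDA-MB-436, with adjusted p of 0.065, 0.156, 0.000654 and 0.000243. TOP2A fell without overlap in MDA-MB-436. In MDA-MB-231 the hairpin value passed the threshold with limma voom (-0.16, adjusted p = 0.0478) and the PROTAC value without MDM2 shRNA library 2 (adjusted p = 0.0406). MKI67 (ENSG00000148773, chr10:128096659-128126385, - strand) encodes Ki-67, the proliferation marker that coats mitotic chromosomes. In MDA-MB-231, MKI67 stood at 292, 266 and 316 CPM with NT shRNA, 213, 281 and 247 with MDM2 shRNA, 559, 271 and 325 with DMSO and 248, 301 and 235 with the PROTAC. In MDA-MB-436, MKI67 stood at 208, 212 and 186 CPM with NT shRNA, 203, 191 and 512 with MDM2 shRNA, 233, 205 and 209 with DMSO and 323, 177 and 228 with the PROTAC. MKI67 had log2 changes of -0.24 ± 0.22 with the hairpin and -0.56 ± 0.22 with the PROTAC in MDA-MB-231, and of 0.58 ± 0.33 and 0.17 ± 0.33 in MDA-MB-436, with adjusted p of 0.523, 0.102, 0.222 and 0.744. The DMSO library at 559 CPM in MDA-MB-231 and the MDM2 shRNA library near 512 CPM in MDA-MB-436 stood apart from the rest of their groups. The PROTAC value in MDA-MB-231 was -0.77 (adjusted p = 0.025) without DMSO library 2 and passed the threshold in DESeq2 (-0.56, adjusted p = 0.0419). DEPDC1 (ENSG00000024526, chr1:68474152-68497221, - strand) completes the list. In MDA-MB-231, DEPDC1 stood at 94.5, 166 and 162 CPM with NT shRNA, 99.9, 103 and 103 with MDM2 shRNA, 90.1, 108 and 94 with DMSO and 111, 109 and 104 with the PROTAC. The DEPDC1 values in MDA-MB-436 were 90.8, 87.7 and 88.8 CPM with NT shRNA, 47.8, 87.5 and 90.5 with MDM2 shRNA, 106, 106 and 114 with DMSO and 54.5, 49.9 and 62.1 with the PROTAC. DEPDC1 had log2 changes of -0.46 ± 0.17 with the hairpin and 0.15 ± 0.17 with the PROTAC in MDA-MB-231, and of -0.24 ± 0.19 and -0.97 ± 0.19 in MDA-MB-436, with adjusted p of 0.0721, 0.594, 0.385 and 0.0021. The PROTAC groups of MDA-MB-436 were separate, whereas NT shRNA library 1 of MDA-MB-231 and MDM2 shRNA library 1 of MDA-MB-436 stood well below the rest of their groups. Without that NT shRNA library the hairpin value in MDA-MB-231 was -0.70 (adjusted p = 0.000104), and DESeq2 with all libraries gave -0.47 (adjusted p = 0.027).

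**Figure D2:**
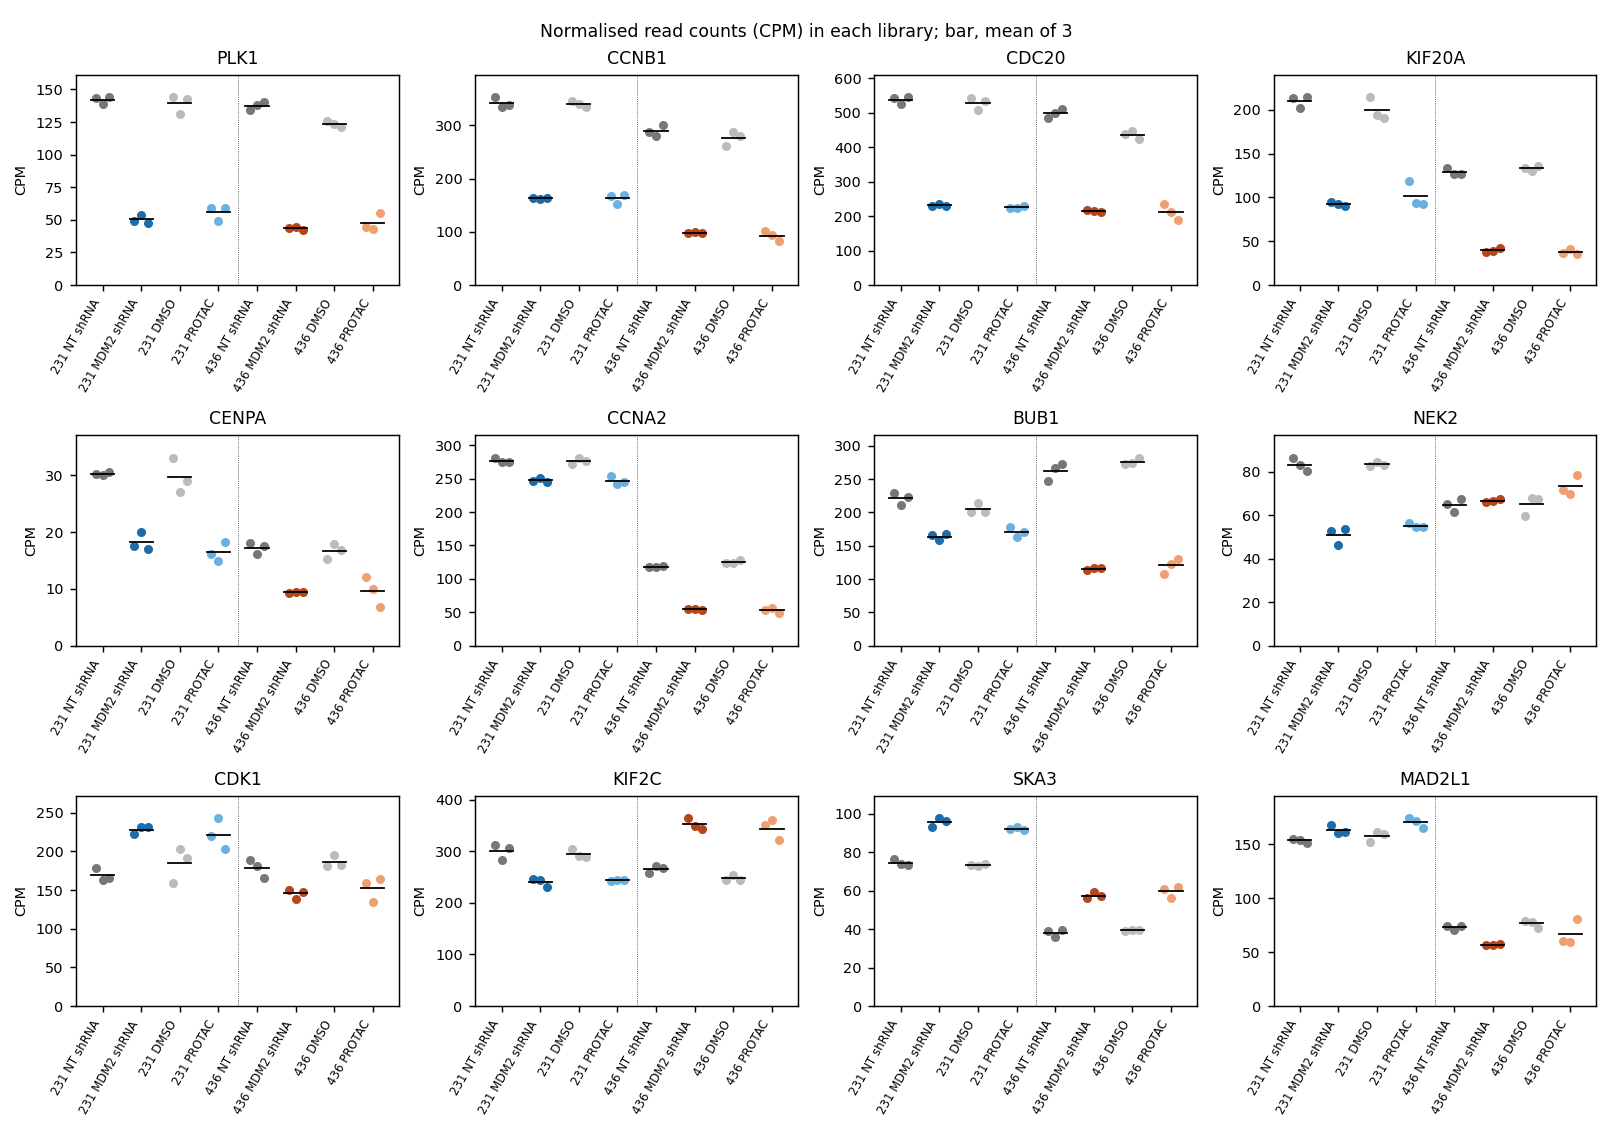
CPM of 12 genes in each library (y axis from 0; points, 3 libraries; bar, their mean), by group along the x axis, MDA-MB-231 left and MDA-MB-436 right of the dotted line. PLK1, CCNB1, CDC20 and KIF20A are separated from their controls in both lines, CCNA2 and BUB1 mainly in MDA-MB-436, NEK2 in MDA-MB-231 alone, and KIF2C moves in opposite directions in the lines, as does CDK1 in the hairpin arm.

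The hairpin and the degrader were compared by the difference of their effects in each line. In MDA-MB-231 none of the 57 genes was called, where 0.00484% of all genes tested (1 gene) was, and 3 genes had an unadjusted p under 0.05 (BUB1, DEPDC1 and KIF23). In MDA-MB-436 none was called either, beside 0.00441% of all genes (1 gene), and 4 had an unadjusted p under 0.05 (ARHGAP11A, CKAP2, DEPDC1 and PLK1). DESeq2 and limma voom also called 0 in each line. The differences of the 57 genes ran from -0.40 to 1.04 in MDA-MB-231 (median 0.028) and from -0.73 to 0.34 in MDA-MB-436 (median -0.018). A missed threshold does not show that the arms act alike, and the intervals say how far they could differ: the 95% interval lay within 1.5-fold either way for 49 of the 57 genes in MDA-MB-231 and for 41 in MDA-MB-436. For PLK1 the PROTAC effect minus the hairpin effect was 0.18 (95% CI -0.06 to 0.42) and 0.28 (95% CI 0.01 to 0.56). CCNB1 had 0.01 (95% CI -0.13 to 0.15) and -0.02 (95% CI -0.25 to 0.21), and CDC20 -0.01 (95% CI -0.12 to 0.10) and 0.17 (95% CI -0.06 to 0.40). The widest were for FOXM1, 0.41 (95% CI -1.31 to 2.14) in MDA-MB-231, and SKA1, -0.32 (95% CI -1.74 to 1.10) in MDA-MB-436. Leaving out 1 library gave 3 calls: SKA1 without DMSO library 1 of MDA-MB-231 (1.84, adjusted p = 0.000125), DEPDC1 without its NT shRNA library 1 (0.85, adjusted p = 0.0214) and ARHGAP11A without PROTAC library 2 of MDA-MB-436 (-1.12, adjusted p = 0.0187). The dose and duration of the PROTAC and the efficiency of the hairpin are not known here. Whether either arm lost MDM2 protein, and to what degree, is therefore not known, and the arms cannot be taken as matched.

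The lines were compared in one fit of all 24 libraries, as the effect in MDA-MB-436 minus that in MDA-MB-231. Of the 57 genes, 13 had a more negative and 6 a more positive hairpin effect in MDA-MB-436 (19 in all, where 19.7% of 24719 genes tested were called in either direction). For the PROTAC 17 were more negative and 7 more positive (24 in all, where 22.3% of all genes were called). More negative in both arms were ANLN, BUB1, CCNA2, CCNB1, CDK1, INCENP, KIF14, KIF20A, KIF23, MAD2L1, SPC25 and TOP2A, and more positive in both were CCNB2, CDC25C, KIF2C, NEK2, SKA3 and TPX2. CCNA2 differed by -0.97 ± 0.082 (adjusted p = 5.85e-08) for the hairpin and -1.08 ± 0.082 (adjusted p = 1.29e-08) for the PROTAC. For BUB1 the differences were -0.77 ± 0.085 (adjusted p = 1.77e-06) and -0.93 ± 0.085 (adjusted p = 1.5e-07). KIF23 had -0.67 ± 0.12 (adjusted p = 0.000323) and -1.01 ± 0.12 (adjusted p = 3.18e-06). In the other direction, NEK2 differed by 0.74 ± 0.092 (adjusted p = 7.74e-06) and 0.77 ± 0.092 (adjusted p = 4.11e-06), and TPX2 by 0.52 ± 0.062 (adjusted p = 4.8e-06) and 0.42 ± 0.062 (adjusted p = 4.19e-05). PLK1 had small differences, -0.18 ± 0.11 (adjusted p = 0.294) and -0.06 ± 0.11 (adjusted p = 0.786), and so did CDC20, -0.01 ± 0.098 (adjusted p = 1) and 0.19 ± 0.098 (adjusted p = 0.189). The SKA3 difference in the hairpin arm (0.21 ± 0.073 (adjusted p = 0.0426)) was lost when any of 20 of the 24 libraries was left out, and both SKA3 differences without a filter (adjusted p of 0.0881 and 0.1). The CDC25C difference was lost on leaving out any of 10 libraries for the hairpin and any of 5 for the PROTAC, and without a filter (0.0525 and 0.0711). The MAD2L1 difference with the PROTAC was lost on leaving out any of 7 libraries, without a filter (0.0758) and without scaling (0.206), and the KIF14 difference with the hairpin without a filter (0.0541) and without scaling (0.057).

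**Figure D3:**
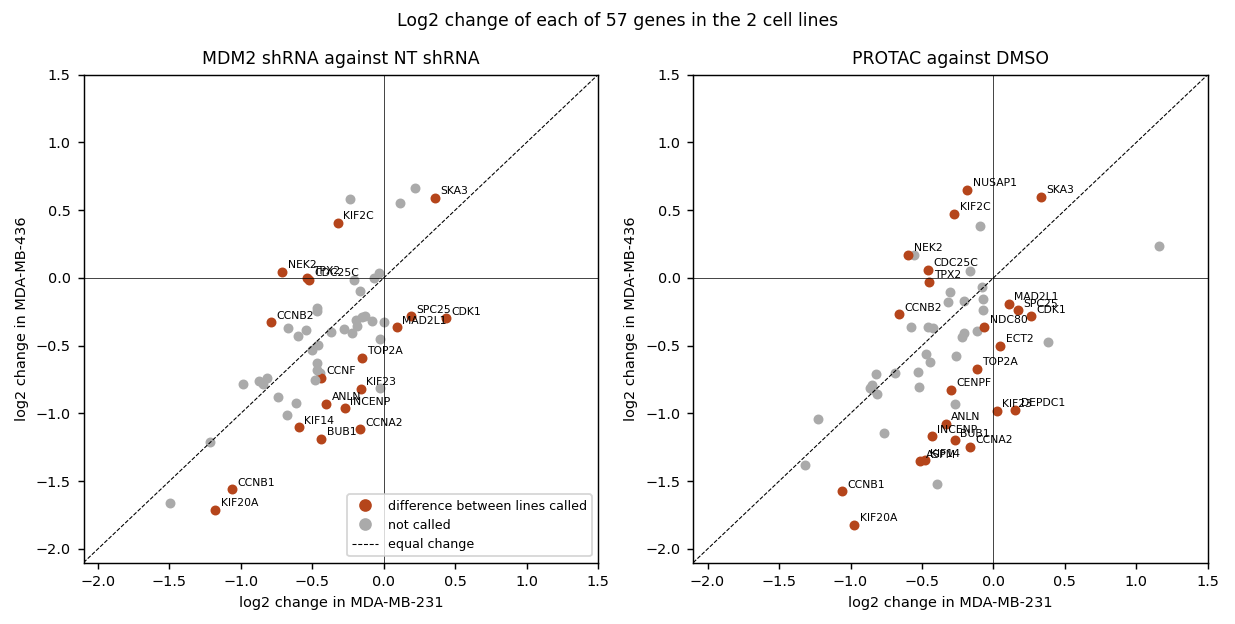
Log2 change of each of the 57 genes, plotted for MDA-MB-231 on the x axis and MDA-MB-436 on the y axis, for MDM2 shRNA (left) and the PROTAC (right); labelled points in red had a called difference between lines, and the dashed line marks equal change. CCNA2, BUB1 and KIF23 lie below the line, NEK2, TPX2 and KIF2C above it, and CCNB1 and KIF20A are low in both lines.

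The control libraries of the lines also differed in their levels of these genes, taking the mean of NT shRNA and DMSO in each line. In MDA-MB-436 32 genes were lower (30.9% of all genes tested were) and 11 higher (35.9%), with a median difference of -0.25 beside 0.105 over all genes. The lowest were DLGAP5 (-1.25), CCNA2 (-1.24), TOP2A (-1.16) and MAD2L1 (-1.11), and the highest ARHGAP11A (0.93), CKAP2L (0.80), BUB1B (0.70) and INCENP (0.67). A difference of effect between lines stood beside control levels that were lower in MDA-MB-436 for CCNA2 and TOP2A, higher for INCENP and BUB1, and near equal for CDK1 (-0.01) and KIF14 (0.06).

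Libraries of one group disagreed for some genes more than for others. The ratio of the highest to the lowest library of a group had a median over the 57 genes of 1.06 to 1.10 in 7 groups and 1.25 in the PROTAC group of MDA-MB-436, whose library 3 also had the lowest total count, 33413988. In 18 genes the ratio exceeded 1.5 in at least 1 group. The largest were SKA1 (3.59), FOXM1 (2.96), MKI67 (2.69) and ARHGAP11A (2.29), and 12 of the 18 had their largest ratio in that PROTAC group. FOXM1 in MDA-MB-231 lay between 91.4 and 111 CPM in 5 libraries and between 249.7 and 276 CPM in the other 7, in treated and control groups alike. The gene on its other strand, ITFG2, whose exons overlap, stayed between 12.3 and 17.5 CPM in that line. SLC35F6, whose exons overlap those of CENPA, another of the 18 genes, did vary. It stood at 67.0, 12.94 and 58.31 CPM with the PROTAC in MDA-MB-436 and at 7.97, 36.54 and 15.18 with DMSO in MDA-MB-231. With NT shRNA in MDA-MB-231 it lay closer together, at 36.89, 30.36 and 36.29 CPM, as with the PROTAC there (29.29, 34.35 and 34.89). SLC35F6 also split in groups where CENPA lay closer together. In MDA-MB-436 these were NT shRNA (52.63, 57.69 and 11.38), MDM2 shRNA (12.7, 65.85 and 59.11) and DMSO (52.73, 42.27 and 15.8). In MDA-MB-231 this held for MDM2 shRNA (31.89, 11.94 and 35.86). Whether the low and high values of such genes are a matter of how reads were given to genes was not tested. With the 18 genes left out, 29, 24, 29 and 27 of the other 39 genes were called lower in the 4 comparisons and 2, 1, 2 and 2 higher, and the medians were -0.37, -0.31, -0.39 and -0.37.

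**Figure D4:**
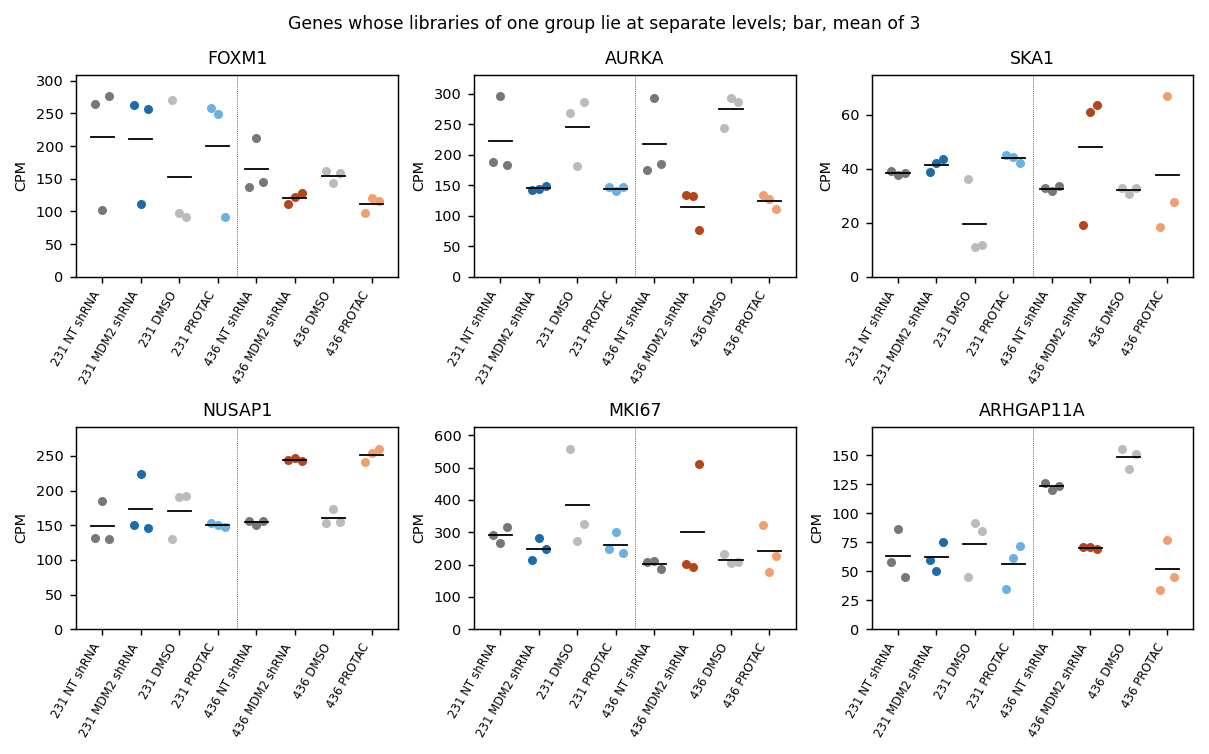
CPM of 6 genes in each library (y axis from 0; points, 3 libraries; bar, their mean), by group along the x axis. FOXM1 lies at 2 levels in each MDA-MB-231 group, SKA1 is low in 2 DMSO libraries of MDA-MB-231, and MKI67 has 1 high library in DMSO of MDA-MB-231 and in MDM2 shRNA of MDA-MB-436.

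Seen by library, the median log2 ratio of the 57 genes to the mean of the own controls was -0.43, -0.36 and -0.34 in the MDM2 shRNA libraries and -0.33, -0.36 and -0.37 in the PROTAC libraries of MDA-MB-231. It was -0.58, -0.38 and -0.42 and -0.61, -0.49 and -0.40 in those of MDA-MB-436. Between 46 and 51 of the 57 genes were below the control mean in each treated library. By group rather than by library, 48.5% (hairpin) and 50.6% (PROTAC) of all genes tested in MDA-MB-231 had a negative log2 change. In MDA-MB-436 these shares were 47.5% and 47.6%. Control libraries had medians between -0.026 and 0.021. These lie near 0 by construction, because each control library is set against the mean of its own group. In PROTAC library 1 of MDA-MB-436 the 28 genes with over 4473 bases of exon had a median of -0.87 and the 29 others -0.32. In library 2 these were -0.60 and -0.40, and in library 3 -0.41 and -0.28. Over the group, 23 of the longer and 18 of the shorter genes were called lower (medians of -0.65 and -0.36), whereas the PROTAC in MDA-MB-231 gave 12 and 21 (medians of -0.27 and -0.45). With the hairpin the counts were 16 and 22 in MDA-MB-231 and 20 and 19 in MDA-MB-436. The part of transcript length in these calls was not tested.

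**Figure D5:**
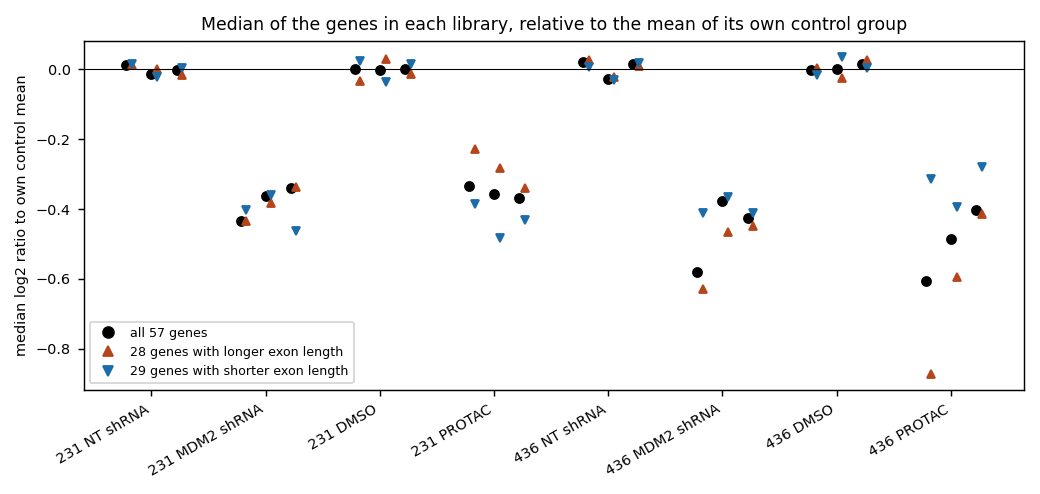
Median log2 ratio of the genes to the mean of the own control group (y axis) in each of the 24 libraries, by group (x axis); circles, all 57 genes, triangles up, the 28 with longer exons, triangles down, the 29 with shorter exons. Every treated library lies below 0, and the longer and shorter genes are farthest apart in PROTAC library 1 of MDA-MB-436, at -0.87 and -0.32. Control libraries lie near 0 by construction.

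Other genes of mitosis were less uniform in direction. Of 98 further mitosis genes, 28 were lower and 23 higher with the hairpin and 26 and 25 with the PROTAC in MDA-MB-231, and 30 and 23, then 30 and 27, in MDA-MB-436, with medians of 0.019, 0.062, -0.011 and -0.024. Of all genes tested, 11.6%, 11.5%, 14.4% and 15.1% were lower and 11.1%, 11.1%, 16% and 17.3% higher in the same order. Those with the largest mean change among the ones called in one direction at least 3 times were all higher. The kinetochore subunit CENPU had 0.28, 0.43, 2.10 and 1.99. The spindle positioning protein MISP had 2.21, 1.92, 0.19 and 0.45, of which the third was not called. CDC25A, a phosphatase that activates CDKs from late G1 on, had 0.64, 0.85, 1.23 and 1.31, and PKMYT1, the kinase that inhibits CDK1, 0.40, 0.72, 0.94 and 1.74. A list of 37 DNA replication genes had 20 and 19 higher in MDA-MB-231 and 32 and 31 in MDA-MB-436, where 11.1%, 11.1%, 16% and 17.3% of all genes were higher, with 5, 3, 0 and 0 lower and medians of 0.24, 0.23, 0.65 and 0.65. CDKN1A, the CDK inhibitor p21, was higher in each comparison (1.32, 1.35, 2.52 and 2.63).

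Among 15 members of the complexes that act at the motifs searched above (MuvB with its pocket proteins and MYBL2, NF-Y, and E2F with its partners), 4 were higher and 1 lower in each comparison of MDA-MB-231, and 7 and 4, then 6 and 5, in MDA-MB-436. The shares over all genes tested were 11.1%, 11.1%, 16% and 17.3% higher and 11.6%, 11.5%, 14.4% and 15.1% lower in the 4 comparisons. MYBL2, the activating partner of MuvB, was higher in all 4 (0.60, 0.58, 0.92 and 0.93), as was the CHR-binding subunit LIN54 (0.33, 0.33, 0.64 and 0.65). LIN37, another MuvB subunit, was called higher in the last 3 of 0.33, 0.96, 1.65 and 1.40, and LIN9 lower in MDA-MB-436 only, 0.21, 0.13, -0.22 and -0.34. The pocket proteins moved apart in MDA-MB-436: RBL1 had -0.08, 0.01, 1.38 and 1.26 and RBL2 -0.10, 0.01, -0.74 and -0.73, and neither was called in MDA-MB-231. The NF-Y subunit NFYA was lower in MDA-MB-436 (-0.14, 0.00, -0.95 and -1.18) and NFYB higher there (0.18, 0.14, 0.41 and 0.41); NFYC, called in 3, had -0.19, -0.15, 0.31 and 0.50. The E2F partners TFDP1 and TFDP2 had 0.15, 0.13, -0.30 and -0.27, all called, and 0.37, 0.14, 0.38 and 0.11, called with the hairpin in both lines. The genes with a CHR had medians of -0.40, -0.27, -0.40 and -0.58 in the 4 comparisons and the 13 promoters without one -0.52, -0.46, -0.70 and -0.71. For CCAAT the medians were -0.45, -0.43, -0.56 and -0.65 with it and -0.36, -0.30, -0.32 and -0.40 without. Exons of 24 of the 57 genes overlap another annotated gene, 21 of them on the other strand, and 10 have a pseudogene named after them. The strand of counting is not given in the sources used here, so reads of a gene and of its antisense neighbour cannot be told apart. Of the 33 genes without such an overlap, 21, 19, 23 and 23 were called lower and 2, 2, 1 and 1 higher.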

How the data were processed

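Counts per Ensembl gene for 60675 genes were deposited by the authors, 1 table for each of 24 libraries, as whole numbers. Per the submitters' processing notes, cutadapt 2.4, HISAT2, StringTie and edgeR were used with the GRCh38 build; which tool counted, the annotation and the strand setting are not given in the sources used here. Per the labels' protocols, total RNA was extracted with TRIzol and a NEBNext Ultra II kit was used for library preparation.

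Symbols were mapped to identifiers with a reference list of gene names, and gene positions and exon overlaps came from GENCODE 29 (GRCh38). Within each line, genes were kept by filterByExpr, libraries were scaled by TMM, and 12 libraries in 4 groups were fitted with the quasi-likelihood test of edgeR 4.0.16 (R 4.3.3) on the counts, with 8 residual degrees of freedom and Benjamini-Hochberg adjustment at 0.05. Differences between lines came from one fit of all 24 libraries (16 residual degrees of freedom). The alternatives were library totals or RLE size factors as the scaling, a minimum of 1 CPM in 3 libraries or no filter, DESeq2 1.42.0, limma 3.58.1 voom, the 6 libraries alone, all 24 libraries, a replicate block, each library left out, and lists without overlapping or variable genes. Figures used Python 3.11.15 with pandas 2.3.3, numpy 2.4.6 and matplotlib 3.10.9. The fit was tested on simulated counts.

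The genes, the further lists and their roles were chosen with earlier results of these data known. The 1.5-fold limit on spread within groups, the motif words and the promoters shown were chosen after values were seen. Values in every library are given for CDK1, CCNB1, PLK1, CDC20, AURKA, AURKB, FOXM1, BUB1, BUB3, TOP2A and MKI67, for the 2 genes of each role with the largest absolute mean of the 4 log2 changes, for genes called higher in any comparison, and for genes called in opposite directions in the lines. Of the further mitosis genes, the 4 with the largest mean change among those called one way in at least 3 comparisons are named. Of the complexes that act at the motifs, those called in at least 2 are named. Genes of the list outside the rule are named by role, some with only part of their values or a range. No 2 libraries of a group held identical values. Reads were not analysed here.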

Additional observations from a re-analysis of the deposited data

Results flagged for a closer look

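The following genes had a different response in the 2 lines by edgeR's quasi-likelihood test of the difference itself, the log2 change in MDA-MB-436 minus that in MDA-MB-231, with p-values adjusted over all genes tested. Where the gene fell in both lines, a negative difference is a larger fall in MDA-MB-436. Such differences were called for 19.7% of all genes with the hairpin and 22.3% with the PROTAC, and for 19 and 24 of the 57 genes.

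Larger falls in MDA-MB-436 were found for BUB1, -0.77 with the hairpin and -0.93 with the PROTAC (adjusted p of 1.77e-06 and 1.5e-07), for the cyclin CCNB1, -0.51 with the hairpin and -0.51 with the PROTAC (adjusted p of 0.00114 and 0.00102), and for the passenger scaffold INCENP, -0.71 with the hairpin and -0.74 with the PROTAC (adjusted p of 9.95e-05 and 5.77e-05). The cytokinesis genes gave -0.55 with the hairpin and -0.84 with the PROTAC (adjusted p of 0.0028 and 3.92e-05) for KIF20A, -0.52 with the hairpin and -0.87 with the PROTAC (adjusted p of 0.013 and 0.000161) for KIF14 and -0.54 with the hairpin and -0.74 with the PROTAC (adjusted p of 0.000155 and 4.06e-06) for ANLN. The KIF14 difference with the hairpin was lost without a filter (adjusted p = 0.0541) and without scaling (0.057). TOP2A, which passed the test in MDA-MB-436 only, differed by -0.45 with the hairpin and -0.56 with the PROTAC (adjusted p of 0.00356 and 0.000525).

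KIF2C moved in opposite directions in the lines, and differed by 0.71 with the hairpin and 0.75 with the PROTAC (adjusted p of 3.7e-06 and 1.73e-06). CDK1 rose in MDA-MB-231 and fell in MDA-MB-436 with the hairpin, whereas its PROTAC value in MDA-MB-231 did not pass the test, and it differed by -0.75 with the hairpin and -0.55 with the PROTAC (adjusted p of 9.37e-05 and 0.00169). Its falls in MDA-MB-436 were not called without scaling (-0.12 in each arm) or without single libraries named in the text. SKA3, which rose in both lines, differed by 0.21 with the hairpin and 0.27 with the PROTAC (adjusted p of 0.0426 and 0.0101), with the larger rise in MDA-MB-436; the hairpin value was lost when any of 20 of the 24 libraries was left out, and both without a filter.

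With the PROTAC alone, the difference was called for ASPM, -0.85 (adjusted p = 0.000445), DEPDC1, -1.13 (adjusted p = 0.00328), and NUSAP1, 0.84 (adjusted p = 0.00798). In the hairpin arm these 3 were not called, and whether the arms differ in their difference between lines was not tested.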

How the results depend on the processing

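Between 26 and 28 genes in MDA-MB-231 and between 25 and 28 in MDA-MB-436 were called lower in a comparison under all 21 alternatives that changed the fit or left out 1 library. The numbers of genes called lower stayed within 1.5 times of the reported ones under each of these except 1. That exception is the use of library totals without scaling for the hairpin in MDA-MB-436 (25). Without scaling the numbers higher were 4, 5, 6 and 7 in the order of the text, and the medians -0.335, -0.235, -0.228 and -0.332. Limma voom moved the hairpin median in MDA-MB-231 to -0.403, by more than the spread between libraries. The count of genes higher with the PROTAC in MDA-MB-231 was 1 without a filter, 1 in the 6 libraries alone and 4 with DESeq2. With 1 library left out it ran from 1 to 3, the medians from -0.45 to -0.378 (hairpin, MDA-MB-231), -0.41 to -0.299 (PROTAC, MDA-MB-231) and -0.464 to -0.382 (hairpin, MDA-MB-436), and the PROTAC minus hairpin calls from 0 to 1 in each line.

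Leaving out genes with exons that another gene overlaps reduced the list to 33. The counts lower were then 21, 19, 23 and 23, the counts higher in MDA-MB-436 1 and 1, the PROTAC median there -0.389, and the calls between lines 11 (hairpin), 15 (PROTAC) and 26 (controls). Leaving out the 18 genes whose libraries differed by over 1.5-fold, which was chosen after seeing the data, gave 1 gene higher with the PROTAC in MDA-MB-231, 27 lower with the PROTAC in MDA-MB-436, and medians of -0.37 (hairpin, MDA-MB-231) and -0.367 (PROTAC, MDA-MB-436). These counts come from shorter lists, and the part of list size in the changes was not tested.

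The same replicate numbers occur in all groups, but nothing in the labels pairs them: deviations of libraries with the same number correlated between -0.054 and 0.068, and not every library correlated best with its own number. With a replicate block the genes lower were 37, 33, 39 and 39, those higher 2, 2, 3 and 3, and the calls between lines 18 and 25. The block ended the calls of AURKA (hairpin in MDA-MB-231, -0.61, adjusted p = 0.0736), KIF22 (PROTAC in MDA-MB-231, 0.0672), HMMR and SPC25 (PROTAC in MDA-MB-436, 0.0592 and 0.0529), and the difference between lines of SKA3 with the hairpin (0.0599).

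Signs under the other settings of the fit were compared only for the genes whose values are given in every library. Signs of the other genes were not compared. Among the genes compared, signs changed only for values that passed no test, all in the hairpin arm of MDA-MB-231 unless stated: without scaling ARHGAP11A (0.074), AURKB (0.070), FOXM1 (0.073) and BUB3 (0.030, and 0.00051 and 0.0997 with the PROTAC in the 2 lines in order), and with limma voom ARHGAP11A (0.012). The BUB3 value with the hairpin in MDA-MB-436 was -0.00088 with RLE size factors, -0.0144 without a filter, -0.0013 with DESeq2, -0.0059 with limma voom, -0.0168 in one fit of all libraries and -0.0114 in the 6 libraries alone. All 57 genes passed the filter on low counts, and each group had 3 libraries. The part of depth in the calls and in the spread between libraries was not tested.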
